A study of Macaca mulatta with 10 samples.

Results

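Heat shock proteins and their co-chaperones were read out of a whole-transcriptome array study of rhesus macaque liver (Macaca mulatta), in which 5 brain-dead animals were compared with 5 living control donors. Members were all probe sets (groups of short probes read together as 1 value) whose annotation gives exactly 1 gene symbol beginning with HSPA, HSPB, HSPD, HSPE, HSPH, HSP90, DNAJA, DNAJB or DNAJC, or with BAG or HSF and a digit. The endoplasmic reticulum chaperones HSPA5, HSP90B1, DNAJB9 and DNAJC3 were left out of the membership. The rule used no signal and found 121 probe sets of 58 genes, of 52865 probe sets on the array and 24969 with 1 symbol. Of these, 94 probe sets of 52 genes were bright enough to be tested, meaning above the median of their own array on at least 5 arrays, and they do not stand for all members. DNAJB7, DNAJB8, HSPA4L, HSPB3, HSPB7 and HSPB9 had no probe set bright enough, and HSPA1A, HSPA1B, HSPA2, HSPA13, HSPA14, HSPB1, HSPD1 and HSPE1 had no probe set with a single symbol, so those genes were not analysed here.

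In the brain-dead animals a balloon catheter in the extradural space was inflated until brain death, and intravenous fluid, vasopressin and dopamine (the drugs alone or together) then supported arterial pressure. The sample labels give 6 hours of brain death, whereas the description of the series gives another duration. The brain-dead animals were 2 females and 3 males aged 7, 18, 7 and 7 years, with no age stated for 1 male. The control donors were 3 females and 2 males aged 16, 10, 4, 20 and 10 years, sedated, anaesthetised and ventilated for 1 hour. Livers of both groups were flushed in situ with UW preservation solution before removal, and each animal gave 1 array. The length of preparation before recovery and the support of arterial pressure with fluid and drugs therefore differed together with brain death, and the parts of these cannot be told apart.

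Heat shock proteins are chaperones that keep other proteins folded or hand them on for degradation. HSP70 proteins bind exposed hydrophobic stretches in a cycle driven by ATP: DNAJ proteins (also called HSP40) deliver the client and trigger hydrolysis, and nucleotide exchange factors of the HSP110 and BAG families release it. HSP90 acts later on signalling proteins, small heat shock proteins hold aggregating clients, and heat shock factors, chiefly HSF1, switch on the inducible members under proteotoxic stress.

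Signals are linear brightness values scaled to a common level on all arrays, whose medians lay between 174.6 and 227.1 units. Changes are differences of mean log2 signal, brain-dead minus control, with their standard error (SE), tested with limma and adjusted for all 26653 probe sets tested. A probe set was said to rise or fall where its adjusted p was under 0.05. Markers of cell types were read by the brightest probe set of each gene. Of the hepatocyte markers APOA1, APOB, FGB, FGA, APOH, AHSG and SERPINA1, none passed the test by that probe set, although a dimmer one of 6 for SERPINA1 rose (1.17 ± 0.32, adjusted p = 0.0464). The summed signal of the hepatocyte list was 514665 to 635600 in brain-dead animals and 588015 to 730630 in control animals. The neutrophil markers S100A8 (3.85 ± 0.74, adjusted p = 0.0128) and S100A9 (3.54 ± 0.63, adjusted p = 0.00911) rose. The summed signal of the neutrophil list was 7410 to 56518 in brain-dead animals and 482.2 to 5228 in control animals, CSF3R did not pass the test and S100A12 was too dim to be tested. Of the macrophage list no gene passed by its brightest probe set, and the summed signal was 20928 to 49550 in brain-dead animals and 35494 to 56223 in control animals. The dimmer of 2 probe sets of the macrophage marker C1QA fell (-1.31 ± 0.35, adjusted p = 0.0444), while the brighter gave -0.33 ± 0.27 (adjusted p = 0.504). No probe set of the endothelial, muscle, stellate, bile duct or erythroid lists passed the test, and the lymphocyte list had none bright enough to be tested. The part of these cells in the changes of the chaperones was not tested, and in whole tissue fewer cells of a type and less RNA per cell cannot be told apart. The animals numbered 1 in both groups stood apart from the other 8, with deviations from their group means that correlated at 0.380. Results that depend on them are given without them below.

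Of the 94 probe sets tested, DNAJC12, BAG3, DNAJB14, HSPA4 and HSPA8 each had 1 that rose in brain-dead livers, and HSF4 had 1 that fell. The other 88 did not pass the test. The 5 that rose are 5.32% of the tested members, against 2.72% of all probe sets tested (724). The 1 that fell is 1.06%, against 3.39% of all (903). HSF4 entered the test through the control arrays, where it is high, so its fall is a description, and with no filter on signal the count that fell was 0. The signals of the groups did not overlap, with brain-dead animals higher, for 9 members or 9.57%, against 3.33% of all probe sets, and with brain-dead animals lower for 1 member, against 3.6% of all. The median change of the tested members was 0.31 on the log2 scale (middle 50% from 0.03 to 0.61), whereas the median over all probe sets tested was -0.003. Of the 94, 71 (75.5%) were above 0, against 49.8% of all probe sets tested. Including the 27 untested probe sets, the median change over all 121 members was 0.31, and 87 were above 0. With each gene represented by its brightest probe set, BAG3, DNAJC12 and HSPA4 rose and HSF4 fell among 52 genes. By that measure, which counts each gene 1 time, 35 of 52 (67.3%) were above 0.

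**Figure D1:**
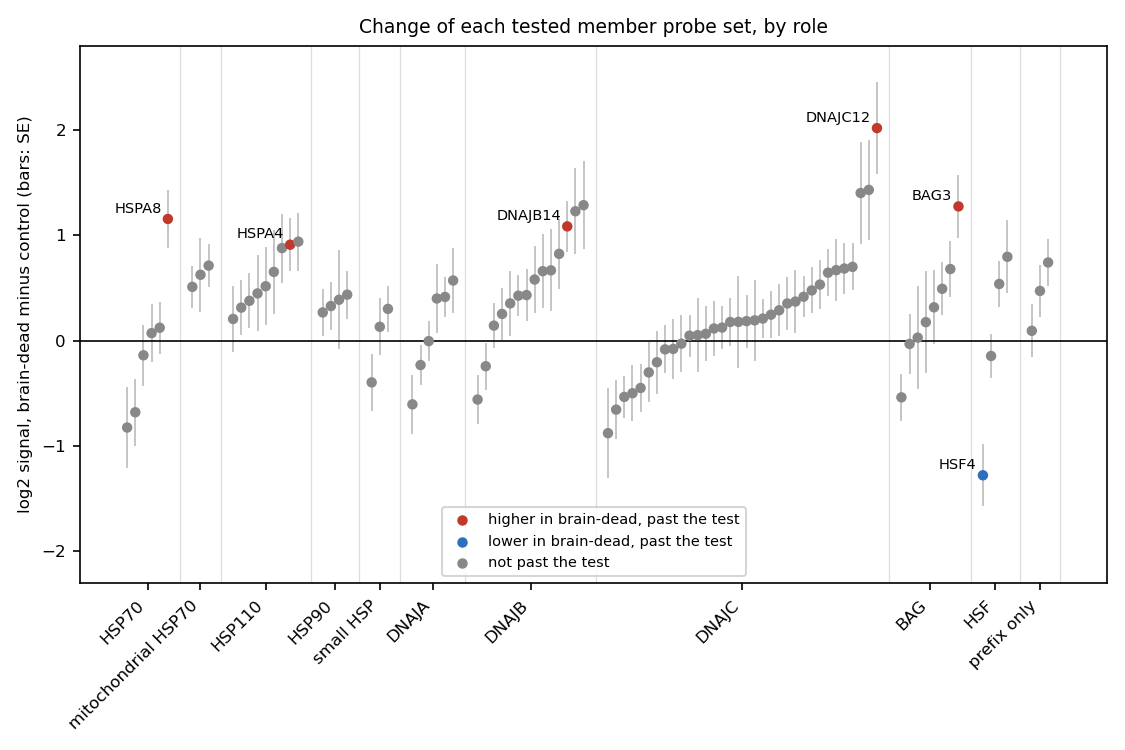
Change in log2 signal, brain-dead minus control, of the 94 member probe sets tested, ordered within each role. Points are limma estimates from 5 brain-dead and 5 control animals, bars are 1 SE, and colour marks the 5 that rose and the 1 that fell. All probe sets of the HSP110, HSP90 and mitochondrial HSP70 roles lie above 0, against 49.8% of all probe sets tested, and they come from 2, 2 and 1 genes.

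The heat shock factors are the transcription factors of this response. HSF4, known in mammals for its part in lens development, had signals of 288, 169, 200, 162 and 117 in brain-dead animals 1 to 5, against 354, 379, 606, 341 and 557 in control animals 1 to 5. Every brain-dead animal was below every control animal, and the change was -1.28 ± 0.29 (0.412-fold, adjusted p = 0.0256). This probe set was near the dim end in the brain-dead livers, since it entered the test through the control arrays, and with 64 units added before the logarithm the change was -1.03. The call was lost when brain-dead animal 4 or 5 or control animal 2, 3 or 5 was left out (adjusted p from 0.0525 to 0.0693).

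HSF1, the main activator of heat shock genes, had changes of 0.54 ± 0.22 (adjusted p = 0.156) and 0.79 ± 0.35 (adjusted p = 0.186) in its 2 probe sets. The brighter of them had 883, 814, 1091, 1378 and 1224 in brain-dead animals, against 721, 862, 652, 569 and 892 in control animals. Brain-dead animals 1 and 2 lay within the range of the control animals and the other 3 above it. HSF2, a relative of HSF1 that can form mixed trimers with it, had a change of -0.15 ± 0.21 (adjusted p = 0.723).

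HSPA8, the constitutive cytosolic HSP70, was represented by 3 probe sets that did not show the same change. The one that rose had signals of 10485, 5155, 6687, 6812 and 7832 in brain-dead animals, against 4796, 2722, 4492, 2901 and 2076 in control animals. All brain-dead animals were above all control animals, the lowest brain-dead animal only just, and the mean was 7394 ± 1975 in brain-dead animals and 3398 ± 1183 in control animals (SD, n = 5 each). The change was 1.15 ± 0.27 (2.23-fold, adjusted p = 0.0284), and leaving out brain-dead animal 1, 3, 4 or 5 or control animal 2 or 5 ended the call (adjusted p from 0.0532 to 0.0735). Without both animals numbered 1 the call was kept.

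The other HSPA8 probe sets did not pass the test. The brightest had 17296, 34784, 26095, 28206 and 25052 in brain-dead animals, against 14513, 23513, 25266, 34249 and 24644 in control animals. Its change was 0.12 ± 0.25, with a 95% interval from -0.41 to 0.65 that lies mostly below the interval of 0.56 to 1.74 of the probe set that rose. The remaining probe set had 4419, 7605, 5656, 6560 and 5702 in brain-dead animals, against 3533, 9340, 6975, 4137 and 5844 in control animals, and a change of 0.07 ± 0.27 (adjusted p = 0.907). In these 2 probe sets animal 1 was the lowest of each group, whereas in the probe set that rose animal 1 was the highest of each group. Which of the 3 follows HSPA8 messenger RNA best was not tested.

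The remaining HSP70 members had changes below 0. HSPA6, a strictly stress-inducible HSP70 in humans, was dim, with 206, 178, 331, 180 and 207 in brain-dead animals, against 246, 284, 308, 205 and 166 in control animals, and a change of -0.14 ± 0.29 (adjusted p = 0.814). The groups overlapped over nearly their whole range. HSPA12A and HSPA12B, distant relatives of HSP70, had changes of -0.68 ± 0.32 (adjusted p = 0.213) and -0.82 ± 0.39 (adjusted p = 0.214). The median of the 6 HSP70 probe sets was -0.03.

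HSPA9, the mitochondrial HSP70 or mortalin that pulls imported proteins into the matrix, had changes above 0 in all 3 of its probe sets, none past the test. Of all probe sets tested, 49.8% were above 0. The probe set closest to it had 21232, 18968, 17680, 20431 and 32264 in brain-dead animals, against 13994, 12138, 11637, 16511 and 12210 in control animals. The groups did not overlap, brain-dead animal 5 was the highest, and the change was 0.71 ± 0.20 (adjusted p = 0.0566). It passed under 4 of 20 alternatives, among them quantile normalization (adjusted p = 0.0450), a filter at the 75th percentile (adjusted p = 0.0451) and the omission of control animal 4 (adjusted p = 0.0382). The brightest probe set gave 0.51 ± 0.20 (adjusted p = 0.139) and the dimmest 0.62 ± 0.35 (adjusted p = 0.302).

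The HSP110 proteins HSPA4 and HSPH1 release nucleotide from HSP70 and take part with it in breaking up aggregates. All 9 of their tested probe sets, from 2 genes, had changes above 0, with a median of 0.52, against 49.8% of all probe sets above 0. Of the 9, 1 rose past the test (11.1%, against 2.72% of all probe sets). That HSPA4 probe set had 3943, 3947, 3610, 4156 and 7053 in brain-dead animals, against 2242, 1716, 1948, 2993 and 3138 in control animals, a change of 0.91 ± 0.25 (1.88-fold, adjusted p = 0.0492). Brain-dead animal 5 stood well above the other brain-dead animals, and all brain-dead animals were above all control animals. The call lies at the threshold: it was lost under 15 of 20 alternatives, with each brain-dead animal left out and with control animal 1, 2 or 3 left out, at adjusted p values up to 0.122. Without both animals numbered 1 the change was 0.93 (adjusted p = 0.107).

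The other HSPA4 probe sets had changes of 0.94 ± 0.28 (adjusted p = 0.0607, and 0.0428 without brain-dead animal 2 or 0.0262 without control animal 4), 0.88 ± 0.33 (adjusted p = 0.124), 0.38 ± 0.26 (adjusted p = 0.408) and 0.31 ± 0.26 (adjusted p = 0.506). HSPH1, the heat-inducible HSP110, had 10814, 4411, 5423, 5373 and 11664 in brain-dead animals, against 4073, 2204, 10522, 4986 and 3599 in control animals. Brain-dead animals 1 and 5 and control animal 3 were high, the groups overlapped, and the change was 0.65 ± 0.40 (95% interval from -0.20 to 1.51, adjusted p = 0.344). Its other 3 tested probe sets gave 0.21 to 0.52.

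**Figure D2:**
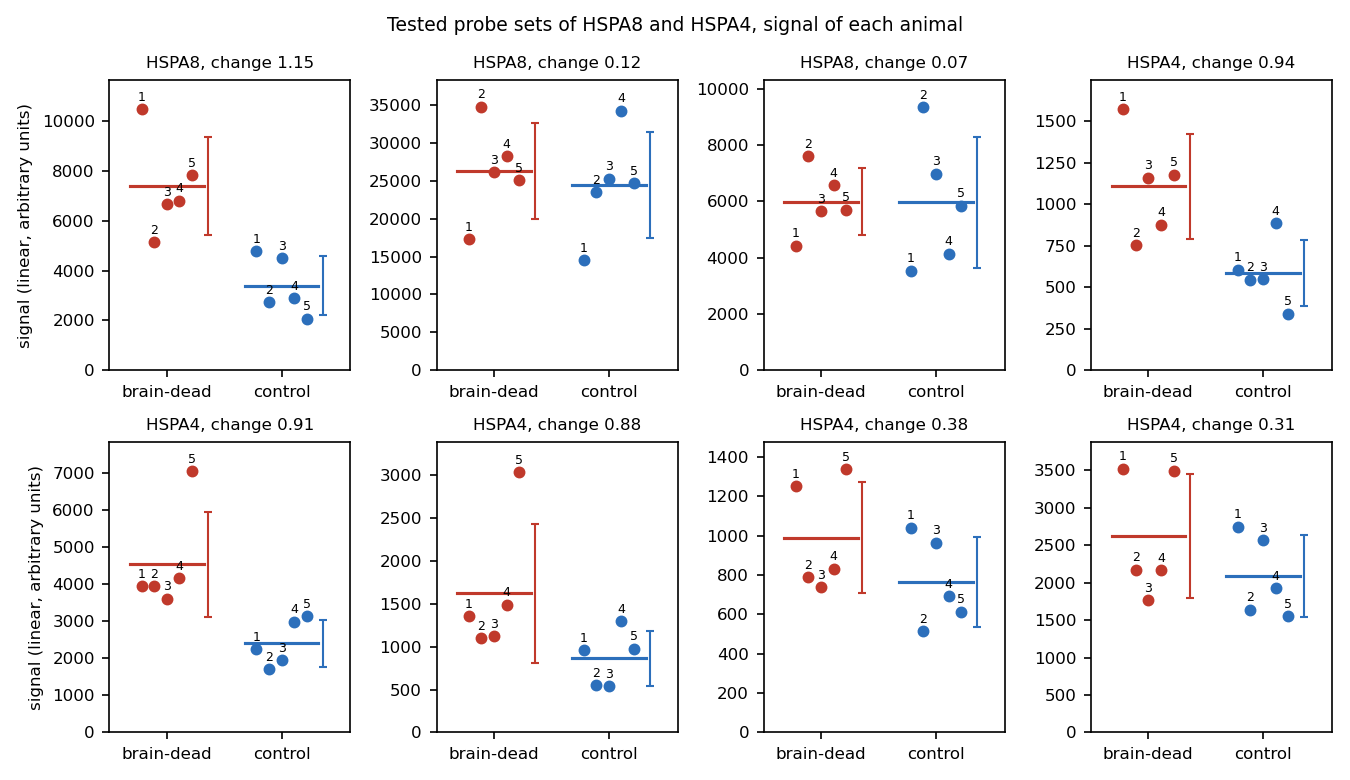
Linear signal, in arbitrary units from 0, of the 3 HSPA8 and 5 HSPA4 probe sets tested, brain-dead animals left of control animals, with each change in log2 units in the panel title. Points are animals with their numbers, lines are means and bars SDs of 5 animals; the groups are separate in 1 HSPA8 panel (change 1.15) and 1 HSPA4 panel (change 0.91) and overlap in the others.

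HSP90 was measured through HSP90AA1, the inducible cytosolic form, and HSP90AB1, the constitutive one. All 4 probe sets tested, 3 of them of HSP90AB1, had changes above 0, against 49.8% of all probe sets tested, and none passed the test. HSP90AA1 had 1046, 760, 1221, 1078 and 1475 in brain-dead animals, against 1137, 661, 761, 783 and 762 in control animals, a change of 0.44 ± 0.23 (adjusted p = 0.264). Control animal 1 lay among the brain-dead animals and brain-dead animal 2 among the controls. The brightest HSP90AB1 probe set had 28232, 16953, 27215, 26626 and 28608 in brain-dead animals, against 16958, 21877, 24959, 24941 and 13798 in control animals, a change of 0.33 ± 0.22 (adjusted p = 0.405). Brain-dead animal 2 was below 4 of the 5 control animals, while the other 4 brain-dead animals exceeded every control. Its other probe sets gave 0.27 ± 0.23 and 0.39 ± 0.47.

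Small heat shock proteins were mostly below the level needed for the test: 3 of 8 probe sets entered it. HSPB8, which works with BAG3 in the autophagy of misfolded proteins, had 5587, 7113, 5881, 5625 and 5527 in brain-dead animals, against 4608, 4276, 3523, 7365 and 5009 in control animals. All brain-dead animals exceeded 4 of the 5 controls, control animal 4 was the highest of all 10, and the change was 0.30 ± 0.22 (adjusted p = 0.439). Its dimmer probe set gave 0.13 ± 0.27. HSPB6, best known from muscle, had a change of -0.40 ± 0.27 (adjusted p = 0.403).

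No DNAJA gene, the class built like the bacterial DnaJ protein, passed the test. Among its 6 probe sets 3 were above 0, near the 49.8% of all probe sets tested. DNAJA1, a cytosolic partner of HSP70, had in its brightest probe set 11106, 5623, 6890, 5661 and 9386 in brain-dead animals, against 20469, 9884, 11425, 8947 and 9006 in control animals. Brain-dead animals 2, 3 and 4 were below every control, and the change was -0.61 ± 0.28 (adjusted p = 0.210). Its other probe sets gave -0.23 ± 0.19 and -0.01 ± 0.19. DNAJA2, another cytosolic member, gave 0.57 ± 0.31 (adjusted p = 0.290), and DNAJA3, which works in mitochondria, gave 0.41 ± 0.19 (adjusted p = 0.213).

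Among the 14 DNAJB probe sets tested, 12 (85.7%) were above 0 with a median of 0.51, against 49.8% of all probe sets tested. Of the 14, 1 rose (7.14%, against 2.72% of all probe sets). It belongs to DNAJB14, a DNAJ protein anchored in the membrane of the endoplasmic reticulum. Its signals were 536, 924, 646, 548 and 598 in brain-dead animals, against 243, 454, 308, 288 and 250 in control animals. The groups did not overlap, animal 2 was the highest in each, and the means were 650 ± 159 in brain-dead animals and 308 ± 85.3 in control animals (SD, n = 5 each). The change was 1.08 ± 0.24 (2.12-fold, adjusted p = 0.0226), and it missed the threshold without control animal 1 (adjusted p = 0.0526) and without both animals numbered 1 (adjusted p = 0.0617). The brighter DNAJB14 probe set had 331, 1054, 867, 458 and 630 in brain-dead animals, against 455, 543, 646, 371 and 434 in control animals. There the groups overlapped, with brain-dead animal 1 the lowest of all 10, and the change was 0.35 ± 0.31 (adjusted p = 0.523).

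DNAJB1, the stress-inducible HSP40 of the cytosol, gave 0.43 ± 0.25 (adjusted p = 0.310) and 0.58 ± 0.31 (adjusted p = 0.286). Its brighter probe set had 4265, 2484, 3288, 3918 and 5477 in brain-dead animals, against 2817, 2125, 2724, 3826 and 2682 in control animals. Brain-dead animals 1, 4 and 5 lay above every control, and brain-dead animal 2 lay below 4 of the 5.

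DNAJB6, which holds back aggregation of polyglutamine proteins, had 5 probe sets with changes from 0.14 to 1.28, the largest with an adjusted p of 0.0831 (0.0413 without brain-dead animal 2 and 0.0441 without control animal 4). The brightest had 8299, 4668, 6499, 8117 and 6880 in brain-dead animals, against 2222, 2483, 5548, 8423 and 5562 in control animals. Control animals 1 and 2 were low and control animal 4 was the highest of all 10, so the groups overlapped, at a change of 0.66 ± 0.35 (adjusted p = 0.274).

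DNAJB11, a soluble co-chaperone of HSPA5 in the endoplasmic reticulum, gave 0.82 ± 0.33 (adjusted p = 0.156) and 1.23 ± 0.41 (adjusted p = 0.0904). In the brighter probe set the signals were 8962, 14086, 14958, 13939 and 10224 in brain-dead animals, against 3188, 6438, 6723, 14649 and 7679 in control animals. Control animal 4 alone reached the level of the brain-dead animals. Without that animal the change was 1.10 (adjusted p = 0.0345), the only 1 of the 20 alternatives under which this probe set passed, and the other probe set passed there too (adjusted p = 0.0140). DNAJB4, another cytosolic member, had a change of -0.56 ± 0.23 (adjusted p = 0.159).

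The DNAJC proteins share only the J domain and serve many compartments. Of 34 probe sets tested, 24 (70.6%) were above 0 with a median of 0.18, against 49.8% of all probe sets tested. The 1 that rose is 2.94% of them, near the 2.72% of all probe sets. DNAJC12, a co-chaperone of the aromatic amino acid hydroxylases, among them the phenylalanine hydroxylase of liver, had the largest change of all tested members. Its signals were 4296, 11494, 16785, 7157 and 3844 in brain-dead animals, against 1106, 3126, 1456, 3193 and 1310 in control animals. Every brain-dead animal was above every control animal, with animals 2 and 3 the highest of the brain-dead group, and the means were 8715 ± 5444 in brain-dead animals and 2038 ± 1031 in control animals (SD, n = 5 each). The change was 2.02 ± 0.44 (4.04-fold, adjusted p = 0.020), which was lost by a small margin without control animal 3 (adjusted p = 0.0501) and kept under the other 19 alternatives.

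A dimmer DNAJC12 probe set had 240, 748, 1317, 390 and 290 in brain-dead animals, against 140, 291, 88.6, 261 and 200 in control animals. Its brain-dead animals were in the same order except for the lowest pair, the groups overlapped, and the change was 1.43 ± 0.47 (adjusted p = 0.0889).

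**Figure D3:**
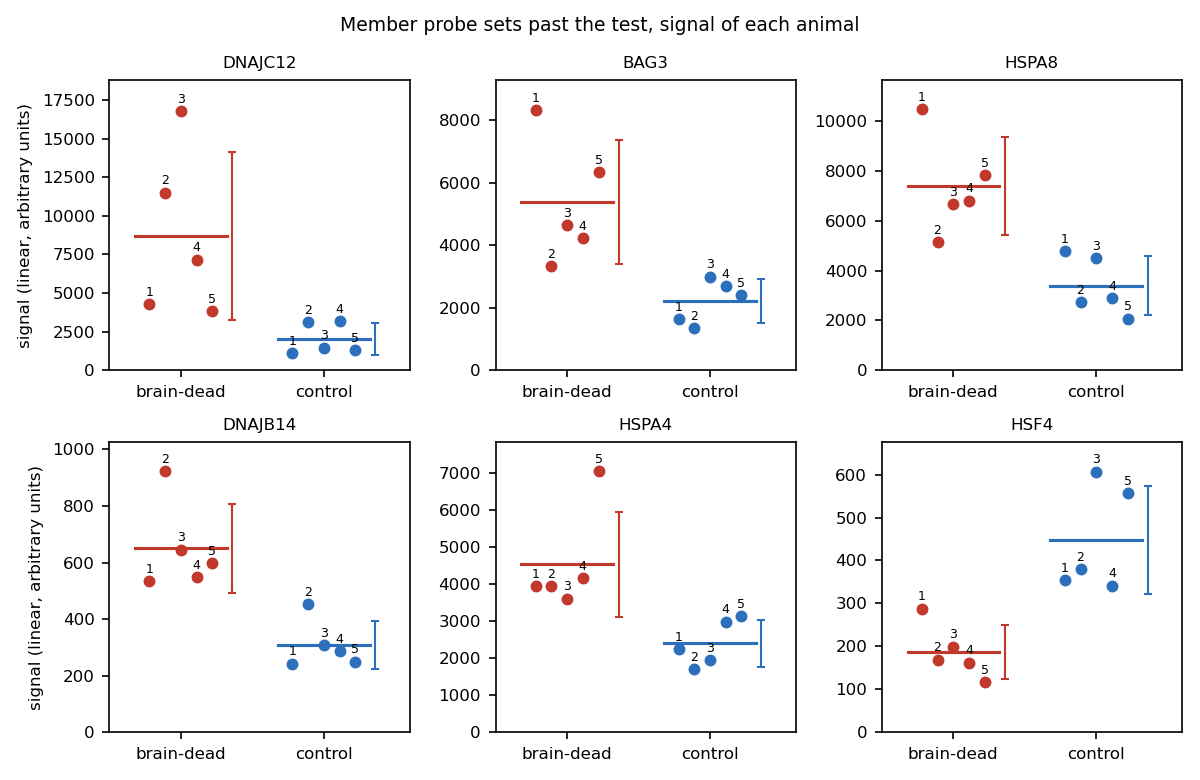
Linear signal by animal, in arbitrary units from 0, of the 5 member probe sets that rose and the 1 that fell, brain-dead animals left of control animals. Lines and bars give the mean and SD of 5 animals, and points carry the animals' numbers. In each of the 6 the groups do not overlap, and DNAJC12 has the widest spread among brain-dead animals.

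DNAJC7, which carries clients between HSP70 and HSP90, was the closest of the other DNAJC genes, with changes of 0.70 ± 0.22 (adjusted p = 0.0801) and 0.68 ± 0.24 (adjusted p = 0.104). Its brighter probe set had 6422, 5569, 5585, 7996 and 7885 in brain-dead animals, against 3610, 3244, 3716, 6110 and 4194 in control animals. Control animal 4 alone lay within the range of the brain-dead animals, and without it the adjusted p was 0.0279, 1 of 2 alternatives under which this probe set passed. The other DNAJC7 probe set passed, of the 20 alternatives, only without that animal (adjusted p = 0.0303). DNAJC11, a protein of the mitochondrial membranes, had 3 probe sets between 0.35 and 0.67, and in the brightest of them the groups did not overlap (0.64 ± 0.22, adjusted p = 0.0989). DNAJC6, the clathrin uncoating factor auxilin, was dim and gave 1.40 ± 0.49 (adjusted p = 0.104).

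DNAJC10, a disulphide reductase of the endoplasmic reticulum, had probe sets on both sides of 0, at 0.48 ± 0.22 (adjusted p = 0.205) and -0.30 ± 0.28 (adjusted p = 0.559). The lowest DNAJC change was that of DNAJC25, with 1116, 2811, 1977, 3984 and 1658 in brain-dead animals, against 1710, 4916, 6823, 2393 and 6273 in control animals. The groups overlapped, and the change was -0.88 ± 0.43 (adjusted p = 0.230). DNAJC1, a membrane protein of the endoplasmic reticulum, gave -0.53 ± 0.20 (adjusted p = 0.127) and -0.03 ± 0.27.

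BAG proteins bind the ATPase domain of HSP70. BAG3, the stress-inducible member that routes misfolded proteins to autophagy, had 8331, 3319, 4643, 4235 and 6343 in brain-dead animals, against 1622, 1335, 2993, 2681 and 2408 in control animals. Every brain-dead animal exceeded every control, animal 1 most of all, and the means were 5374 ± 1984 in brain-dead animals and 2208 ± 704.5 in control animals (SD, n = 5 each). The change was 1.27 ± 0.30 (2.42-fold, adjusted p = 0.0275). The call was lost when brain-dead animal 1, 3 or 5 or control animal 1 or 2 was left out (adjusted p from 0.0511 to 0.0717), and without both animals numbered 1 the change was 1.00 (adjusted p = 0.0978).

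The 1 that rose is 12.5% of the 8 BAG probe sets tested, against 2.72% of all probe sets, and the other 7 did not pass the test. BAG1, which releases nucleotide from HSP70 near the proteasome, had 2721, 3258, 2419, 4183 and 5247 in brain-dead animals, against 1465, 2600, 1923, 2930 and 2087 in control animals. Brain-dead animals 2, 4 and 5 lay above every control and the change was 0.68 ± 0.27 (adjusted p = 0.142). BAG2, an inhibitor of the ubiquitin ligase that works with HSP70, gave 0.49 ± 0.25 (adjusted p = 0.255) and 0.17 ± 0.48.

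BAG4, named for silencing of death receptors, had a change of -0.54 ± 0.22 (adjusted p = 0.161) in its brighter probe set and 0.03 ± 0.49 in the other. BAG5 gave -0.03 ± 0.29. BAG6, which guards newly made membrane proteins, had 3720, 2937, 2983, 4782 and 6172 in brain-dead animals, against 4090, 3874, 4011, 1232 and 4111 in control animals. Control animal 4 was far below the other controls, brain-dead animals 1 to 3 were below those 4, and the change was 0.32 ± 0.35 (adjusted p = 0.630).

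HSPBP1 and HSPBAP1 meet the naming rule but are binding partners rather than heat shock proteins. HSPBP1, a nucleotide exchange factor of HSP70, had 1184, 1668, 1260, 1689 and 1897 in brain-dead animals, against 674, 1128, 944, 796 and 1069 in control animals. The groups did not overlap, and the change of 0.74 ± 0.22 missed the threshold (adjusted p = 0.0631). It passed under 2 of 20 alternatives, one of them a filter at the 75th percentile (adjusted p = 0.0476). HSPBAP1, which binds a small heat shock protein, gave 0.47 ± 0.25 (adjusted p = 0.274) and 0.09 ± 0.25.

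**Figure D4:**
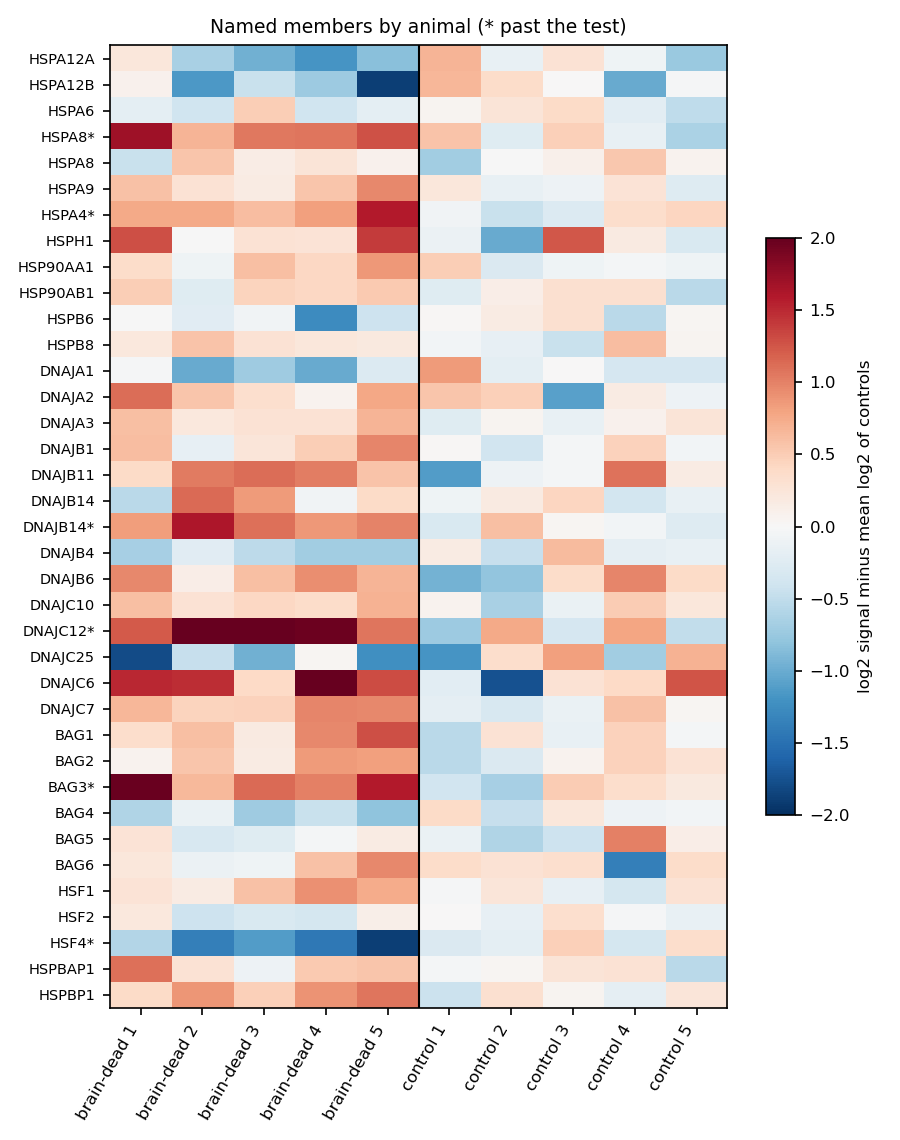
Difference of log2 signal from the mean log2 of the control animals, by animal, for the named member probe sets in order of role. Columns are the 5 brain-dead and then the 5 control animals, the colour scale stops at 2 in each direction, and asterisks mark probe sets past the test. Brain-dead animal 5 is the most uniformly above the controls, and control animal 4 is above the control mean for DNAJB11, DNAJB6 and BAG5.

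The members were not shifted equally in all animals. The median deviation of the 94 tested members from the control mean was 0.351, 0.122, 0.251, 0.295 and 0.554 log2 units in brain-dead animals 1 to 5, against -0.008, -0.053, 0.038, 0.167 and -0.051 in control animals 1 to 5. Control animal 4 lay above brain-dead animal 2, so the groups overlapped in this measure. Over all probe sets tested the same medians ran from -0.046 to 0.113 in brain-dead animals and from -0.062 to 0.088 in control animals. Members deviated upwards in 78.7% of probe sets in brain-dead animal 5 and in 57.5% in brain-dead animal 2, against 59.6% in control animal 4 and 44.7% in control animal 2.

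Probe sets of 1 gene did not always move alike. Of 27 genes with more than 1 tested probe set, 22 had changes of 1 sign throughout, and BAG4, DNAJC10, DNAJC27, DNAJC4 and DNAJC5B had both signs. For no gene did 2 probe sets pass the test. The effect of brain death was also compared between males and females. No member had an interaction past the threshold, as for 0.0% of all probe sets (lowest adjusted p = 0.9998), and at an unadjusted p under 0.05 there were 0 members, against 1015 (3.81%) of all probe sets. With 2 or 3 animals of a sex in each group, an interval of this interaction is wide and does not show that the sexes responded alike.

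Other parts of the chaperone network were described through 5 lists, each gene by its brightest probe set where that was tested. Genes of these lists that had no probe set with a single symbol could not be read. Over all probe sets tested, 2.72% rose, 3.39% fell and 49.81% were above 0. Among 18 tested co-factors of HSP90 and HSP70, none rose, PTGES3 fell, and 11 were above 0 with a median of 0.28. PTGES3, the p23 protein that stabilises the closed form of HSP90, had 233, 212, 324, 348 and 154 in brain-dead animals, against 715, 825, 556, 629 and 560 in control animals. The groups did not overlap, and the change was -1.42 ± 0.26 (adjusted p = 0.00998), kept under all 19 alternatives in which it was tested. Its only probe set was dim in the brain-dead livers, with animal 5 below the median of its array (178). It was too dim to be tested with the filter at the 75th percentile. STIP1, which joins HSP70 to HSP90, gave 0.55 ± 0.24 (adjusted p = 0.185).

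Of 12 tested subunits and partners of the chaperonin TRiC and of prefoldin, which fold actin and tubulin, none passed the test and 9 were above 0 (median 0.26). Of 12 genes of mitochondrial protein quality control, likewise none passed and 9 were above 0 (median 0.20). Of 10 ubiquitin and aggregate clearance partners none passed, and 2 were above 0 (median -0.23). In lists of 10 or 12 genes a count of 0 is near the share over all probe sets.

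Of 10 tested chaperones of the endoplasmic reticulum, 8 were above 0 with a median of 0.40, and 1, FKBP14, rose. This list had 16 genes, and HSPA5, DNAJB9, DNAJC3, HYOU1, CALR and CRELD2 had no probe set with a single symbol. FKBP14, a prolyl isomerase that acts on collagens, had 1781, 1004, 2814, 703 and 912 in brain-dead animals, against 321, 544, 332, 542 and 320 in control animals. The groups did not overlap, and the change was 1.67 ± 0.35 (adjusted p = 0.0191). Its other probe set rose too, by 1.30. Of 3 probe sets of PDIA6, a disulphide isomerase, 1 rose, close to the threshold (0.66 ± 0.18, adjusted p = 0.04835). The brightest PDIA6 probe set (0.47 ± 0.21, adjusted p = 0.198) did not pass the test. Without both animals numbered 1 the FKBP14 change was 1.46 (adjusted p = 0.0827). SDF2L1, which works with HSPA5 and DNAJB11, had 1546, 6178, 8701, 6284 and 4952 in brain-dead animals, against 416, 1140, 1419, 3913 and 1209 in control animals, a change of 1.93 ± 0.54 that missed the threshold (adjusted p = 0.0524). Control animal 4 was the highest control for SDF2L1, as it was for DNAJB11.

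**Figure D5:**
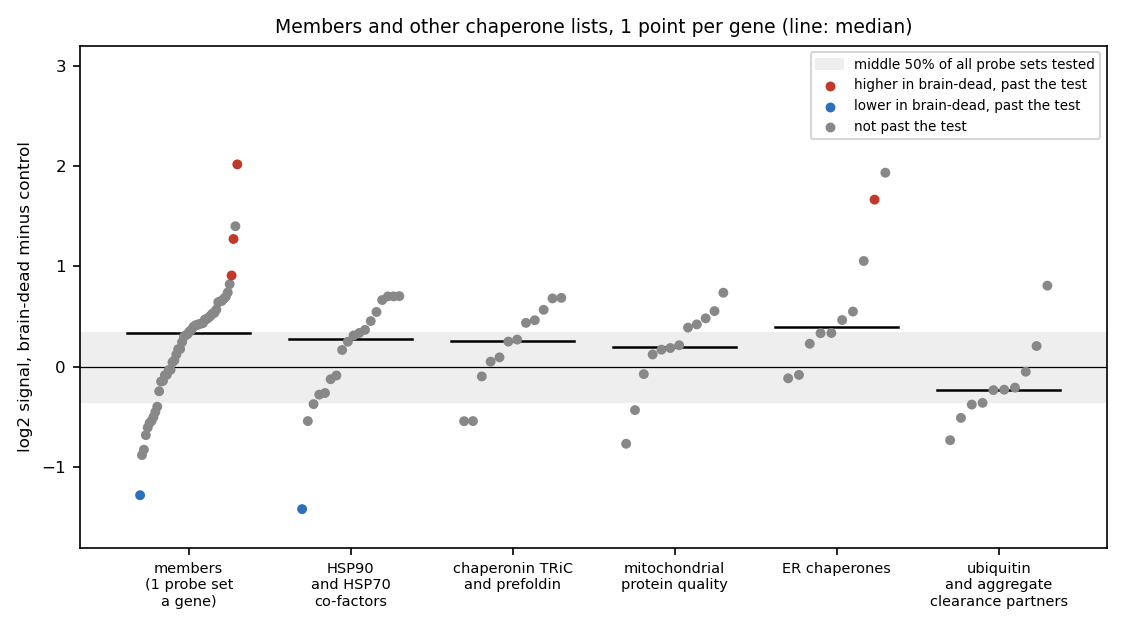
Change in log2 signal, brain-dead minus control, of the members and of 5 further chaperone lists, each point 1 gene by its brightest probe set where that was tested. Lines are list medians (0.34 for the members), the grey band is the middle 50% of all probe sets tested (-0.35 to 0.34), and colour marks genes past the test. The list of ubiquitin and aggregate clearance partners has a median below 0, and the other lists have medians above 0.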

How the data were processed

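Liver RNA of 10 macaques was hybridised to 1-colour arrays, 1 per animal. The authors deposited 1 linear intensity per probe set and array, computed with MAS5 per the submitters' processing notes (version not given in the sources used here). All 10 arrays shared a trimmed mean of 1000 in the deposited signal, which shows a prior global scaling. MAS5 values of dim probe sets are noisy, and the number of arrays limits precision. Groups, sex and age came from the labels. Symbols came from the platform annotation (2016), and its probe sets with several symbols were not used.

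Signals were taken to log2 without further scaling or pseudocount. Affymetrix control probe sets (99) and probe sets not above the array median on at least 5 arrays were left out. limma 3.58.1 in R 4.3.3 (lmFit, eBayes with trend) was fitted on group alone over 26653 probe sets, with Benjamini-Hochberg adjustment over all of them and a threshold of 0.05. The script was tested on simulated data. The p-values weigh the difference between the groups against the spread between animals. Named genes were those past the threshold, a fixed list of heat shock genes, and in each role the 3 brightest and the 3 with the largest change. A gene was represented by its brightest probe set. The members and lists were chosen with earlier results of these data known. Same-numbered animals were not treated as pairs, since the labels give no link between them. Alternatives covered scaling, pseudocount, filter, covariates, variance model, threshold and each animal left out, and leaving out both animals numbered 1 was chosen after seeing the data.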

Additional observations from a re-analysis of the deposited data

Results flagged for a closer look

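In 78 groups of 5 animals examined for the named probe sets, 5 had a single animal far from the rest. There the gap to the nearest animal exceeded 0.71 of the group's range. Gaps and ranges were taken on the log2 scale, whereas the signals given below are linear. Chance gives about 1 such group in 20. BAG6 had 1232 in control animal 4 and 3874 in the next control animal, a gap of 0.951 of the range. HSPA4 had 7053 in brain-dead animal 5 and 4156 in the next brain-dead animal, a gap of 0.79 of the range. HSPA6 had 331 in brain-dead animal 3 and 207 in the next, a gap of 0.761 of the range. The brightest HSP90AB1 probe set had 16953 in brain-dead animal 2 and 26626 in the next, a gap of 0.863 of the range. HSPB8 had 7113 in brain-dead animal 2 and 5881 in the next, a gap of 0.754 of the range.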

How the results depend on the processing

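The count of members that rose, 5, became 2 with sex and age in the model (which drops brain-dead animal 3, without an age), 9 with the replicate number as a block, 2 without both animals numbered 1, and 13 at a threshold of 0.1. Leaving out 1 animal at a time gave 2 to 12 members that rose, with 2 when brain-dead animal 1, 3 or 5 or control animal 1 or 2 was left out, 3 when brain-dead animal 4 or control animal 3 was, and 12 without control animal 4. Calls over all probe sets, in either direction, moved too. They numbered 1627 in the main fit and ran from 660 (without control animal 2) to 2289 (without control animal 4). With sex and age in the model there were 1035, and without both animals numbered 1 there were 674. The 1 member that fell, HSF4, became 0 with no filter and 0 with the filter at the 75th percentile, where it was not tested, and leaving out 1 animal at a time gave 0 to 1. Genes that rose went up to 5 where the probe set with the lowest p stood for a gene, against 3 by the brightest. The cause of these differences was not tested.

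Over the 20 alternatives none of the 6 calls changed direction. Outside any call there were 9 sign changes, counted over settings, so that 1 probe set can count repeatedly, as BAG5 did. DNAJC12 lost its call under 1, DNAJB14 under 2, HSF4 under 6, BAG3 and HSPA8 under 7 each and HSPA4 under 15. Of the 94 tested members 71 were above 0, against 72 after quantile normalization and 74 after centring each array on its median, which moved the median of all probe sets to 0.066. With 1 animal left out at a time this count ran from 64 (without control animal 1) to 73 (without brain-dead animal 1). The median change of the members, 0.314, became 0.219 without brain-dead animal 5. Over all probe sets, calls numbered 1627, against 3013 with the block, where DNAJC7 (adjusted p = 0.0300), HSPA9 (0.0390), HSPBP1 (0.0338) and a second HSPA4 probe set (0.0436) also rose. Deviations of same-numbered animals correlated at 0.380, 0.0643, 0.128, 0.0889 and 0.128 for numbers 1 to 5, all above 0. Brain-dead animals 1 and 5 correlated best with the control animal of their own number, and brain-dead animals 2, 3 and 4 with another control animal. The labels give no link between same-numbered animals, so they were not treated as pairs. Whether a number marks a shared day or batch was not tested. Probe sets near the array median, such as HSF4 and HSPA6, are limited by signal over background.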
